A study of Mus musculus with 23 samples.

Results

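The RUNX and ETO genes are the 7 mouse genes whose proteins either supply or resemble the parts of the RUNX1-ETO fusion: Runx1, Runx2, Runx3 and their partner Cbfb, and Runx1t1, Cbfa2t2 and Cbfa2t3. They were found through the RefSeq transcript that each array probe is assigned to, which gave 12 probes for the 7 genes out of 20145 genes named on the array. Each gene is represented by its brightest probe on average, and its other probes are described beside it. Of the 7 genes, 6 were among the 15203 expressed genes tested, where an expressed gene is one that reached 6.5 on the log2 scale on 1 array or more, and Runx2 was not.

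RNA came from mouse ES cells, labelled C57BL/6, in a line made from A2lox cells with HA-tagged human RUNX1-ETO under a tetracycline-responsive promoter, beside wild-type Runx1. All groups carry the transgene, uninduced cells included, and ES colonies were picked and expanded as clones. The populations were haemogenic endothelium (HE), HE2 cells, which have gained CD41 without having lost Tie2, and progenitors (Prog), which are CD41+KIT+Tie2-, all sorted on day 2 of blast culture without doxycycline (nodox) or with 0.1 μg per ml doxycycline (Dox) from day 1 (plusdox), and myeloid progenitors (myeloidProg), grown from progenitors in cytokines without Dox or with Dox for 12 h. There were 3 arrays in each group of HE, HE2 and myeloid progenitors and 2 in each group of progenitors, with 1 additional array of uninduced progenitors that was normalized and left out of the fit, since 1 of its labels names it a technical replicate and another replicate 3. Induced myeloid progenitor array 3, which a label also calls technical, was kept in the fit. The exposure to Dox differed between the sorted populations and myeloid progenitors, so that responses in these are set side by side with different durations.

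RUNX proteins bind DNA through a shared Runt domain, and CBFβ, which does not itself contact DNA, strengthens that binding. RUNX1 is needed for endothelial cells to turn into blood cells and is known to rise during this transition. The ETO proteins, ETO (Runx1t1), MTGR1 (Cbfa2t2) and ETO2 (Cbfa2t3), do not bind DNA on their own and bring corepressors and histone deacetylases to other factors, and in RUNX1-ETO the Runt domain is joined to nearly all of ETO.

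The arrays lay on 3 slides, the third of which held all myeloid progenitor arrays, 1 induced progenitor array and the additional array. The share of an array's spots that were well above background ranged from 48.8 to 78.4%. In the induced HE, HE2 and myeloid progenitor groups, the deposited table of normalized values has replicates 2 and 3 exchanged relative to the scanner files, on 6 arrays in all, which leaves every comparison of groups as it was and makes these replicate numbers uncertain. Replicate numbers below are those of the scanner files. Endothelial markers were well above background on all arrays of every group (10 of 10 in each), and in uninduced cells their mean log2 intensity was 12.40 to 13.64 on HE arrays and 10.05 to 10.26 on progenitor arrays. The groups labelled as myeloid progenitors had 9 of 10 myeloid markers above background on all arrays, as did both HE2 groups and induced progenitors. Uninduced progenitors had 10 of 10. The mean myeloid marker level was 10.31 to 10.81 in uninduced myeloid progenitors and 10.61 to 10.73 in uninduced progenitors. The groups labelled as myeloid progenitors also had the highest levels of erythroid markers of any group, at a mean of 15.58 to 16.01 without Dox. From uninduced progenitors to uninduced myeloid progenitors, 7 of 7 erythroid markers rose, where 13.9% of all genes were called.

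Runx1t1, the mouse gene for ETO, read higher on all induced arrays than on the uninduced arrays of the same population. Its only probe read 10.56, 11.14 and 10.72 on the uninduced HE arrays and 11.90, 12.43 and 11.81 on the induced ones (log2 intensity here and below). In HE2 it read 9.79, 10.11 and 9.74 without Dox and 11.51, 11.91 and 12.46 with Dox. The levels without Dox were lower in HE2 than in HE and did not overlap, whereas the induced levels of both populations overlapped. In progenitors it read 7.92 and 7.50 without Dox, with 7.86 on the additional array, and 11.05 and 12.30 with Dox. In myeloid progenitors it read 9.28, 10.22 and 10.53 without Dox and 11.93, 12.13 and 12.13 with Dox. The uninduced levels therefore covered a wide span, with progenitors below every other group, and the induced levels of the 4 populations lay between 11.05 and 12.46.

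**Figure D1:**
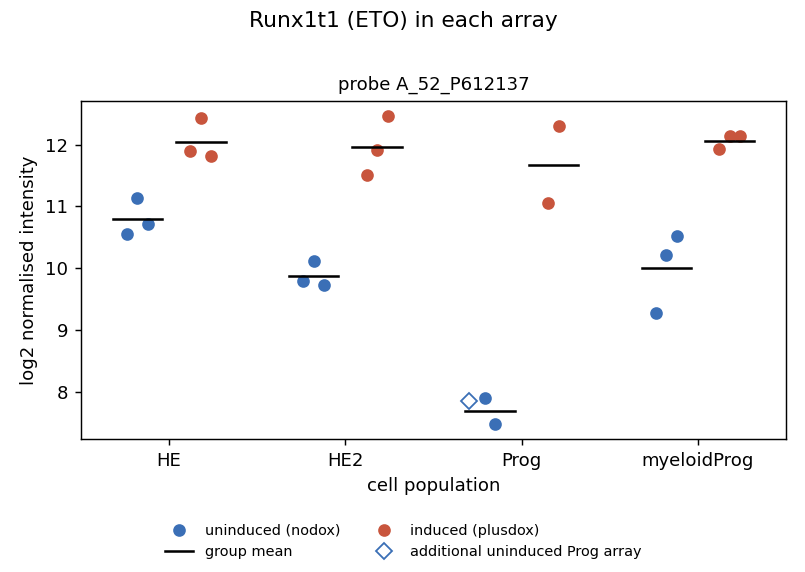
Log2 normalised intensity of the Runx1t1 probe (y axis) on each array of 4 cell populations (x axis), uninduced in blue and induced in red, with group means as lines and the additional uninduced Prog array as an open diamond. Uninduced levels are lowest in Prog, between 7.50 and 7.92, and every induced array lies above the uninduced arrays of its population.

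Genes were called in limma when P was 0.001 or lower and the change was 2-fold or larger, with adjusted P values over all 15203 expressed genes. With Dox, Runx1t1 rose by 2.08 on the log2 scale in HE2 (SE 0.335, 4.22-fold, adjusted P = 0.000304), by 3.97 in progenitors (SE 0.410, 15.7-fold, adjusted P = 1.14e-05) and by 2.06 in myeloid progenitors (SE 0.335, 4.16-fold, adjusted P = 0.000308). In HE the difference was 1.24 (SE 0.335, 95% interval 0.54 to 1.95) and did not pass the threshold on P, at an unadjusted P of 0.00165 and an adjusted P of 0.0155. Within slides, the difference was 1.05 and 1.41 in HE, 1.56 and 2.45 in HE2, and in progenitors 3.13 on the slide shared by 1 array of each kind and 4.45 between the other induced array and the additional array. All members of the family together gave 0 of 6 calls with Dox in HE, where 7.09% of all genes were called and 3 of 6 members had an unadjusted P under 0.05. They gave 2 of 6 in HE2 (7.18% of all genes), 1 of 6 in progenitors (3.75%) and 1 of 6 in myeloid progenitors (6.31%). The transgene is human, the files hold no probe sequences, and whether the mouse Runx1t1 or Runx1 probes also detect RUNX1-ETO RNA was not tested.

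In uninduced cells, Runx1t1 was 0.92 lower in HE2 than in HE (SE 0.335, adjusted P = 0.0937), which did not pass the threshold, although the arrays did not overlap. It then fell by 2.18 from HE2 to progenitors (SE 0.375, adjusted P = 0.00075) and rose by 2.30 from progenitors to myeloid progenitors (SE 0.375, adjusted P = 0.000169). With Dox, the corresponding differences were -0.09 (95% interval -0.79 to 0.62), -0.28 (-1.07 to 0.50) and 0.39 (-0.40 to 1.18), and none passed the threshold. These steps share arrays with each other and with the responses to Dox. The endothelial markers moved with the level of Runx1t1 only in part. Their mean was 11.62 to 12.22 in uninduced HE2 and 12.49 to 12.87 in induced HE2. It was 10.05 to 10.26 in uninduced progenitors and 11.55 to 11.67 in induced ones. In myeloid progenitors it was 9.98 to 10.58 without Dox, overlapping with uninduced progenitors although Runx1t1 was higher, and 11.73 to 12.03 with Dox. In HE, where Runx1t1 read higher with Dox, the markers were at 12.40 to 13.64 without Dox and 12.23 to 12.93 with Dox. Their part in the result was not tested. In sorted or cultured populations measured in bulk, fewer cells of a type and less RNA per cell cannot be told apart.

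The difference between the responses of Runx1t1 was tested for 4 pairs of populations. The response was 1.89 larger in progenitors than in HE2 (SE 0.530, unadjusted P = 0.00222, adjusted P = 0.211) and 1.91 smaller in myeloid progenitors than in progenitors (log2 difference -1.91, SE 0.530, unadjusted P = 0.00205, adjusted P = 0.0978), and neither passed the threshold. Without induced progenitor replicate 1, these differences were 2.52 (adjusted P = 0.0183) and -2.54 (adjusted P = 0.0120) and both passed. Without induced progenitor replicate 2 they were 1.27 and -1.28, and neither passed. In both cases 1 induced progenitor array is left, which is assumed to vary like the other groups. The first also passed without induced HE2 replicate 3, at 2.14 (adjusted P = 0.184), and the second without uninduced myeloid progenitor replicate 1, at -2.28 (adjusted P = 0.0355). Between HE and HE2 the response differed by 0.84 (SE 0.474, adjusted P = 0.733), and between HE and myeloid progenitors by 0.82 (SE 0.474, adjusted P = 0.464). No member of the family had a response that differed between populations by the limma threshold, with 0 of 6 called for HE2 against HE (1.35% of all genes), progenitors against HE2 (0.638%), myeloid progenitors against progenitors (1.5%) and myeloid progenitors against HE (4.71%). At an unadjusted P under 0.05, 1 member differed in each of the first 3 comparisons and 0 in the last.

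Cbfa2t3 encodes ETO2, which works with TAL1, LMO2 and GATA factors in blood progenitors and holds back maturation genes. In each population, all induced arrays read lower than all uninduced ones. The brightest probe read 12.27, 12.84 and 12.41 in uninduced HE and 10.61, 11.68 and 12.06 in induced HE. In HE2 it read 12.73, 13.44 and 13.06 without Dox and 11.64, 11.48 and 12.17 with Dox. In progenitors it read 13.65 and 14.14 without Dox, with 13.58 on the additional array, and 13.28 and 13.14 with Dox. In myeloid progenitors it read 14.03, 13.85 and 13.66 without Dox and 13.59, 13.28 and 13.10 with Dox. The groups did not overlap in any population, and the gap was widest in HE2 and narrowest in myeloid progenitors.

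**Figure D2:**
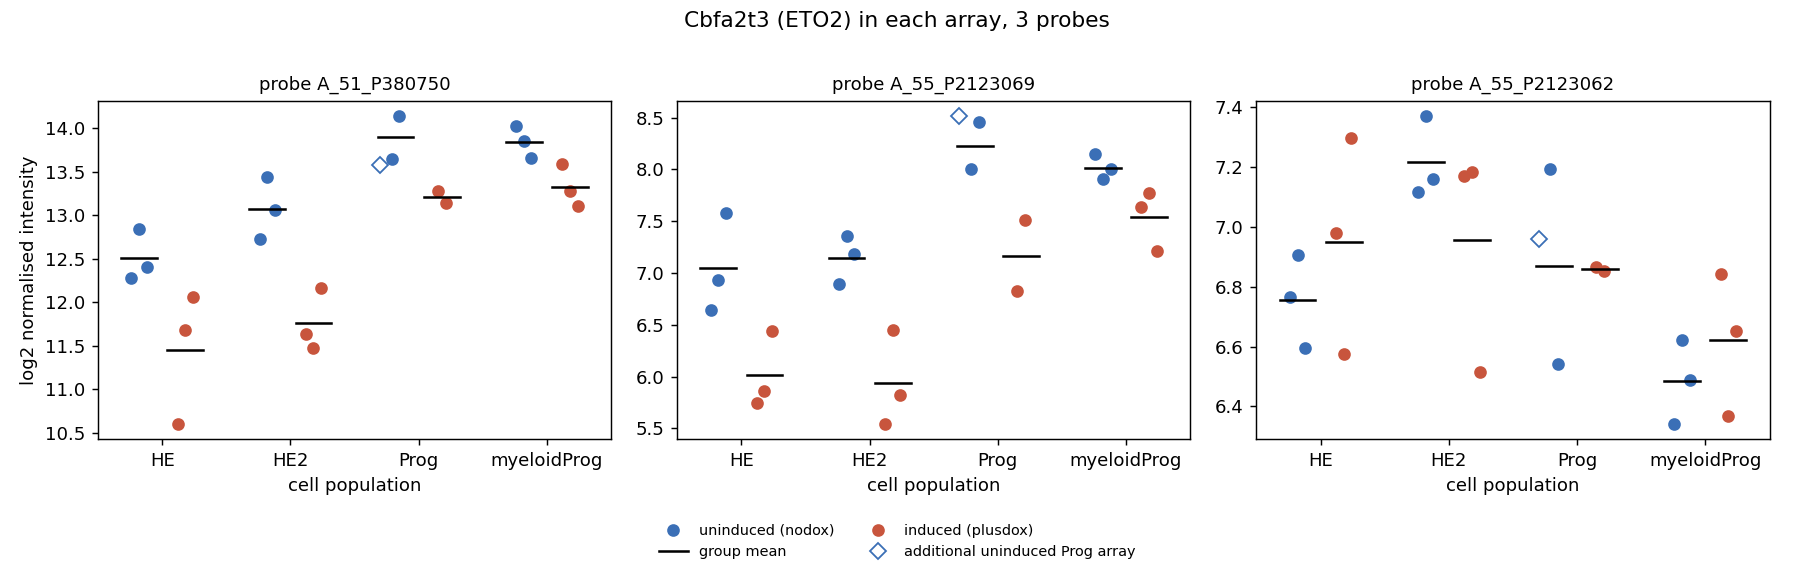
Log2 normalised intensity of the 3 Cbfa2t3 probes (y axes, scaled apart) on each array of 4 cell populations (x axes), uninduced in blue and induced in red, with group means as lines and the additional uninduced Prog array as an open diamond. For the left and middle probes the induced arrays lie below the uninduced arrays in every population, and for the right probe, which spans 6.34 to 7.37, they do not.

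In HE2, Cbfa2t3 fell by 1.32 with Dox (SE 0.302, adjusted P = 0.0051), a 2.49-fold change. The call was lost without uninduced HE2 replicate 2 (-1.14), uninduced replicate 3 (-1.33), induced replicate 1 (-1.26) or induced replicate 2 (-1.18), with adjusted P values between 0.0177 and 0.0311. In HE the difference was -1.06 (SE 0.302, adjusted P = 0.0217, unadjusted P = 0.00257) and did not pass the threshold, except without induced HE replicate 3, where it was -1.36 (adjusted P = 0.00629). Without induced HE replicate 1 it was -0.64. It was -0.68 in progenitors (95% interval -1.46 to 0.10) and -0.52 in myeloid progenitors (-1.16 to 0.11). Within slides, the difference was -1.95 and -0.54 in HE, -1.45 and -1.24 in HE2, and -0.37 and -0.43 in progenitors, the last against the additional array. Whether these responses differ was tested as above, with adjusted P values of 0.987 for HE2 against HE, 0.80 for progenitors against HE2, 0.924 for myeloid progenitors against progenitors and 0.689 for myeloid progenitors against HE. A second probe, A_55_P2123069, differed by -1.04 in HE, by -1.21 in HE2, where it passed the threshold (adjusted P = 0.0107 over the 34972 probes tested), by -1.06 in progenitors and by -0.48 in myeloid progenitors, and its induced and uninduced arrays did not overlap in any population either. The third probe, A_55_P2123062, gave differences between -0.26 and 0.19 and its groups overlapped throughout. The probes thus disagree on whether Cbfa2t3 RNA differed, and the transcripts they match were not separated further.

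Along the uninduced populations, the level of Cbfa2t3 was 0.57 higher in HE2 than in HE (adjusted P = 0.29) and 0.82 higher in progenitors than in HE2 (adjusted P = 0.187), and differed by -0.05 between progenitors and myeloid progenitors (adjusted P = 0.93), none past the threshold. With Dox it rose by 1.45 from HE2 to progenitors (SE 0.338, adjusted P = 0.00638), after a difference of 0.31 from HE to HE2 (adjusted P = 0.668) and before one of 0.11 from progenitors to myeloid progenitors (adjusted P = 0.869). The call of the rise was lost without induced HE2 replicate 1 or 2 (1.39 and 1.31) or induced progenitor replicate 1 or 2 (1.38 and 1.52), with adjusted P values between 0.0222 and 0.0430, and with the slide as a block (1.75, adjusted P = 0.0205).

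The RefSeq table holds promoters for both start sites of Cbfa2t3, and these are shown because this gene and Runx1t1 moved in opposite directions with Dox. Each sequence is the 250 bases before a start site in build GRCm38.p6, on the minus strand. A RUNX motif was searched as TGTGGT or its reverse complement ACCACA only, and neither sequence holds this form, so that no letter is in capitals. Variants of the motif were not searched, among them ACCGCA, which the upstream sequence holds. The form searched is found in 14% of the 32851 promoter windows of this length. The upstream sequence, at chr8:122699110-122699359, holds 1 match to an ETS motif (CCGGAA on either strand, in 12% of the windows), and the downstream one, at chr8:122678176-122678425, holds 0.
Cbfa2t3 upstream: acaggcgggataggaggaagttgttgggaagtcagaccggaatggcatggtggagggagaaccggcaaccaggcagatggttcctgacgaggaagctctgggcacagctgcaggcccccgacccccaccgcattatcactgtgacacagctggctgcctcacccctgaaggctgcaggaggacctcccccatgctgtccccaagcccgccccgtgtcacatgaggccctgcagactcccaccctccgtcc
Cbfa2t3 downstream: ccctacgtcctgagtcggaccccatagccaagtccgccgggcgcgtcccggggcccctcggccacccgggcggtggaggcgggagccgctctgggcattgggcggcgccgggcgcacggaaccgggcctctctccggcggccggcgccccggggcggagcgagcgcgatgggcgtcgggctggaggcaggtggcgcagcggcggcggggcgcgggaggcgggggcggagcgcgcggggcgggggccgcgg

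Runx1 rose from uninduced HE to HE2, and in no population did its response to Dox pass the threshold. The brightest probe, A_55_P2183438, read 11.07, 11.32 and 9.88 in uninduced HE and 12.92, 13.28 and 12.91 in uninduced HE2. It read 14.21 and 14.19 in uninduced progenitors, with 13.58 on the additional array, and 12.71, 12.18 and 12.60 in uninduced myeloid progenitors. With Dox it read 10.68, 12.05 and 11.79 in HE, 12.48, 12.82 and 12.93 in HE2, 14.38 and 13.82 in progenitors and 12.41, 12.64 and 11.85 in myeloid progenitors. Induced and uninduced arrays overlapped in all 4 populations. In order of the group means, both progenitor groups came first and did not overlap with the next, uninduced HE2, while all other neighbours in the order overlapped, down to uninduced HE, which was the lowest.

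**Figure D3:**
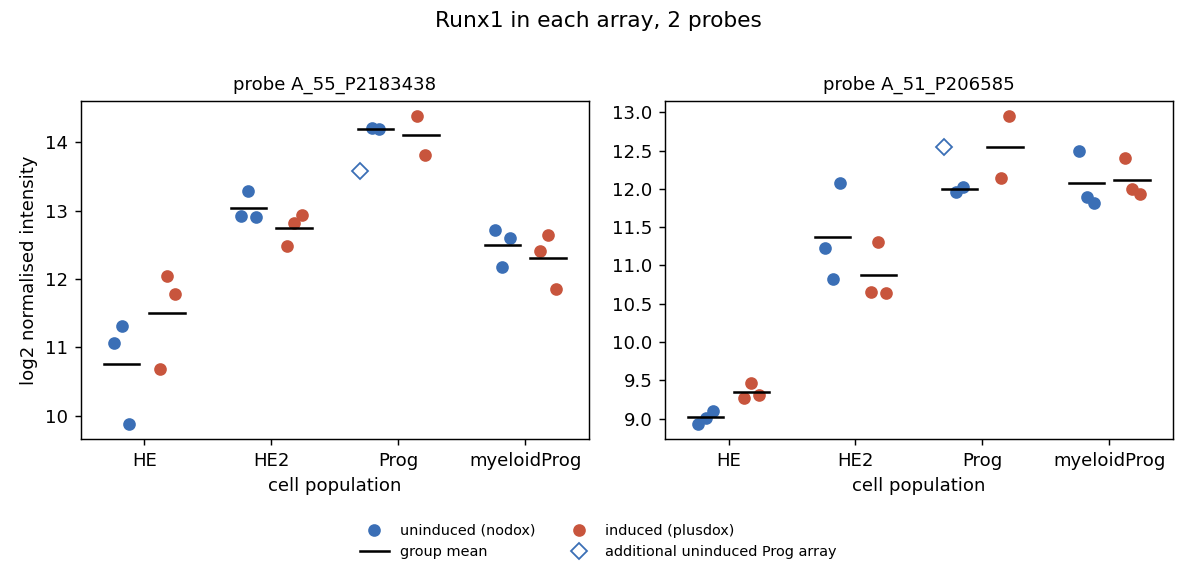
Log2 normalised intensity of the 2 Runx1 probes (y axes, scaled apart) on each array of 4 cell populations (x axes), uninduced in blue and induced in red, with group means as lines and the additional uninduced Prog array as an open diamond. Both probes rise from HE to HE2, and from Prog to myeloidProg the left probe falls while the right probe stays between 11.82 and 12.95.

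The rise of Runx1 from HE to HE2 was 2.28 without Dox (SE 0.356, 4.87-fold, adjusted P = 0.000403), with within-slide values of 1.91 and 3.03. With Dox the difference was 1.24 (SE 0.356, unadjusted P = 0.0027, adjusted P = 0.0481), which did not pass the threshold. The test of the difference between both steps, which is the difference between the responses to Dox in HE2 and HE, gave -1.04 (SE 0.503, unadjusted P = 0.053, adjusted P = 0.589), and -1.45 to -0.61 when 1 array was left out. From HE2 to progenitors Runx1 was 1.16 higher without Dox (adjusted P = 0.0899) and 1.36 higher with Dox (adjusted P = 0.0283), neither past the threshold. Of the family, Runx1 was the only call from HE to HE2 without Dox, where 5.05% of all genes were called, and with Dox 0 of 6 members were called (3.1% of all genes), with 1 at an unadjusted P under 0.05. From HE2 to progenitors 1 of 6 was called without Dox (Runx1t1, against 5.4% of all genes) and 1 of 6 with Dox (Cbfa2t3, against 7.3%). From progenitors to myeloid progenitors 2 of 6 were called without Dox (Runx1 and Runx1t1, against 13.9%) and 1 of 6 with Dox (Runx1, against 7.37%).

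The fall of Runx1 from progenitors to myeloid progenitors was 1.70 without Dox (log2 change -1.70, SE 0.398, adjusted P = 0.00329) and 1.80 with Dox (log2 change -1.80, SE 0.398, adjusted P = 0.00421). It was given by 1 probe only. The other probe, A_51_P206585, read 11.96 and 12.03 in uninduced progenitors and 12.50, 11.89 and 11.82 in uninduced myeloid progenitors, a difference of 0.08 (SE 0.323, adjusted P = 0.886). Uninduced progenitors and myeloid progenitors shared no slide in the fit, and against the additional array, on the same slide as the myeloid progenitors, the first probe differed by -1.09. The call without Dox was lost when uninduced myeloid progenitor replicate 2 or 3 (-1.54 and -1.76) or uninduced progenitor replicate 1 or 2 (-1.70 and -1.71) was left out, and with Dox when induced myeloid progenitor replicate 3 (-1.57) or induced progenitor replicate 1 (-1.52) was left out. With the slide as a block the fall with Dox was also -1.52 and was not called (adjusted P = 0.0869). The median of all genes differed by -0.12 between uninduced progenitors and myeloid progenitors.

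Both Runx1 probes rose from HE to HE2 in uninduced cells, the second by 2.36 (SE 0.289, adjusted P = 6.94e-05 over the 34972 probes tested). With Dox, the second probe also rose from HE to HE2, by 1.52 (SE 0.289, adjusted P = 0.00614), and from HE2 to progenitors, by 1.68 (SE 0.323, adjusted P = 0.00287), the steps at which the first probe did not pass. The second probe read 8.93, 9.01 and 9.10 in uninduced HE and 9.27, 9.47 and 9.31 in induced HE, so that these arrays did not overlap, with a difference of 0.34 (adjusted P = 0.667). The first probe differed by 0.75 with Dox in HE (95% interval 0.00045 to 1.497, unadjusted P = 0.0499, adjusted P = 0.186), and within slides by -0.51 and 2.03. It was 0.31 without uninduced HE replicate 3 and 1.16 without induced HE replicate 1. In the other populations the first probe differed by -0.29 in HE2 (95% interval -1.04 to 0.45), by -0.10 in progenitors (-1.02 to 0.82) and by -0.19 in myeloid progenitors (-0.94 to 0.55). The intervals in HE2 and progenitors include a 2-fold fall, and that in HE includes a 2-fold rise.

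Runx1 is known to be transcribed from a distal and a proximal promoter whose use changes during blood development, and both are shown because the 2 probes, assigned to different RefSeq transcripts, disagreed after the progenitor stage. Each sequence is the 250 bases before a start site in build GRCm38.p6, on the minus strand. Neither holds the RUNX motif in the form searched. The distal sequence, at chr16:92826075-92826324, has a GC content of 45.6%, and the proximal one, at chr16:92697330-92697579, has 67.6% and holds 1 match to the ETS motif. Which promoter each probe reports was not analysed here.
Runx1 distal: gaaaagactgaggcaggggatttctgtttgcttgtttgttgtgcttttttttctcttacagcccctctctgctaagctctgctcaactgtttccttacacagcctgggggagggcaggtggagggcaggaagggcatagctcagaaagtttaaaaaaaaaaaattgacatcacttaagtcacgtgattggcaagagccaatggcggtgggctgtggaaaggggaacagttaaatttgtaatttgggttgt
Runx1 proximal: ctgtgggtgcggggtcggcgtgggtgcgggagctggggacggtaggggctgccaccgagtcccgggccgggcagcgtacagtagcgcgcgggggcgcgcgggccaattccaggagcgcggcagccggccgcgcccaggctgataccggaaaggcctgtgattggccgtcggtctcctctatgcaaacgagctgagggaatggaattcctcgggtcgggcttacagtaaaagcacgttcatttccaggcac

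Runx3, which is best known in T cells, dendritic cells and sensory neurons, was dim, and its 2 probes, assigned to the same transcript, gave different patterns. The brighter probe, A_51_P494992, ranged from 5.99 to 7.94 over the 23 arrays and was not called in any comparison. Its largest difference with Dox was -0.96 in HE2 (SE 0.373, adjusted P = 0.0883), from 7.45, 7.78 and 7.68 to 6.32, 7.07 and 6.64, and these arrays did not overlap. In HE it was 0.61 higher with Dox, with arrays that overlapped (adjusted P = 0.337), and the test of the difference between both responses gave -1.57 (unadjusted P = 0.00813, adjusted P = 0.242).

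The other probe, A_55_P2130895, was not well above background on any HE array and reached 7.13 and 7.92 in uninduced progenitors. It rose by 1.87 from uninduced HE2 to uninduced progenitors (SE 0.325, adjusted P = 0.00159 over all probes), with 2 of 3 HE2 arrays well above background. In progenitors it was 1.37 lower with Dox, at 5.84 and 6.46 (SE 0.356, unadjusted P = 0.00116, adjusted P = 0.0411), and the arrays did not overlap. In myeloid progenitors it was 0.84 lower with Dox (adjusted P = 0.099), from 7.37, 6.31 and 6.72 to 6.45, 5.82 and 5.62, and the arrays overlapped. In induced HE2 it was not well above background on any array. Against its signal there, uninduced HE2 read 1.43-fold higher (adjusted P = 0.333) and induced progenitors 2.02-fold higher (adjusted P = 0.07), neither past the threshold. These folds set the brighter group against the higher of the dim probe's own signal and the lowest signal well above background on each array. They leave out the spread between arrays and are not lower limits. In myeloid progenitors, where this probe read lower with Dox, the brighter probe differed by 0.003 (95% interval -0.78 to 0.79).

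Runx3 also has a pair of promoters in the RefSeq table, and the first of them is shown because it holds 2 RUNX motifs close together, given in capitals in the form ACCACA. It lies on the plus strand at chr4:135120395-135120644 in GRCm38.p6, and the motifs begin 134 and 126 bases before the start site. The promoter of Runx2 holds 1 such motif, and the other Runx3 promoter and those of Cbfb and Cbfa2t2 hold 0.
Runx3 first promoter: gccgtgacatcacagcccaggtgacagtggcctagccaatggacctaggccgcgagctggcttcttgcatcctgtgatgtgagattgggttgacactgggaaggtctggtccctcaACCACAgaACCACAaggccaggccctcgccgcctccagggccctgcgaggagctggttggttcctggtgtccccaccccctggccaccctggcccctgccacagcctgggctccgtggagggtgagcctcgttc

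Runx2, the regulator of bone and cartilage cells, gave little signal. Its probes were well above background on 12 and 10 of 23 arrays, with ranges of 4.72 to 6.23 and 5.20 to 5.77, and all groups overlapped with their neighbours in the order of the means for the brighter probe. No fold changes are given for probes this dim.

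Cbfb and Cbfa2t2 stayed within narrow ranges. The Cbfb probe read 14.25 to 15.35 and the Cbfa2t2 probe 11.48 to 12.67 over all 23 arrays, with every reading well above background. With Dox, Cbfb differed by -0.31 in HE (95% interval -0.75 to 0.12), 0.12 in HE2 (-0.31 to 0.55), 0.33 in progenitors (-0.20 to 0.85) and 0.26 in myeloid progenitors (-0.17 to 0.69). Cbfa2t2, which encodes MTGR1, differed by -0.05 in HE (-0.43 to 0.33), 0.05 in HE2 (-0.33 to 0.43), 0.22 in progenitors (-0.25 to 0.68) and 0.42 in myeloid progenitors (0.04 to 0.80). Each of these intervals lies within a 2-fold change in either direction, and no comparison called either gene.

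**Figure D4:**
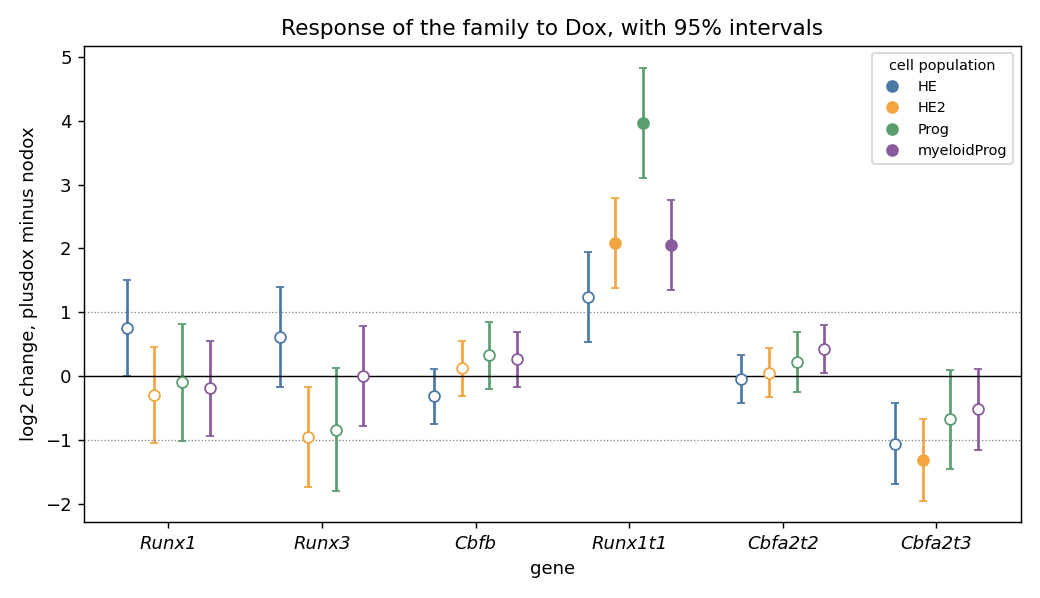
Log2 change with Dox (y axis, plusdox minus nodox, bars are 95% intervals from the limma fit) of the 6 expressed family members (x axis) in 4 cell populations by colour, where filled points passed the threshold of P 0.001 and 2-fold and dotted lines mark 2-fold. Runx1t1 lies above 1 in all 4 populations, from 1.24 to 3.97, and Cbfa2t3 lies below 0 in all 4, from -1.32 to -0.52.

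Genes that are known targets of RUNX1 were taken from a list of 16, of which 14 were expressed. With Dox, 1 rose and 3 fell in HE, 1 rose and 7 fell in HE2, 1 rose and 1 fell in progenitors and 1 rose and 2 fell in myeloid progenitors, and the other members did not pass the test. The share of all genes called, up or down, was 7.09, 7.18, 3.75 and 6.31% in this order. These shares are also the background for the marker lists below. The median log2 change of the target list, in the same order, was -0.68, -1.21, -0.44 and -0.50. That of all genes was -0.01, -0.03, -0.04 and -0.02. Alox12, a lipoxygenase of platelets, rose by 1.67 in HE (adjusted P = 0.0011), 2.54 in HE2 (adjusted P = 2.54e-05) and 3.63 in progenitors (adjusted P = 1.37e-05). Spi1, which encodes the myeloid regulator PU.1, fell in HE2 (log2 change -2.74, adjusted P = 5.45e-05) and in progenitors (log2 change -2.22, adjusted P = 0.00527), and was well above background on 2 of 3 induced HE2 arrays. Itga2b, the gene for CD41, fell by 3.21 in HE (adjusted P = 0.00207). HE cells were sorted for the absence of CD41, and HE2 cells and progenitors for its presence. The mean level of Itga2b in HE2 was 11.81 without Dox and 9.35 with Dox. Myh10, a non-muscle myosin, fell in HE (log2 change -1.39, adjusted P = 3.67e-05) and in myeloid progenitors (log2 change -1.05, adjusted P = 0.00146), the latter with 1 array dropped from the fit because its spot was marked as an outlier. Myl9, a myosin light chain, fell by 2.18 in HE2 (adjusted P = 0.00255). Of the cardiac and smooth muscle markers, 4 of 8 fell in HE2 and 0 rose, with a median change of -1.27. Acta2 (-2.995) and Tagln (-2.42) were among them. In HE, 1 of these markers rose and 1 fell (median -0.90), and in myeloid progenitors 1 rose and 0 fell (median 0.42). Their part in the falls of Myl9 and Myh10 was not tested. In myeloid progenitors Gfi1, which is in 3 of the lists used and is a repressor that acts in blood stem cells and granulocytes, rose by 3.23 (adjusted P = 2.32e-05), and Pf4, a platelet chemokine, fell by 1.84 (adjusted P = 0.0063). Erythroid markers moved with Dox beside these genes, with 3 of 7 up in HE, 4 of 7 in HE2, 4 of 7 in progenitors and 0 of 7 in myeloid progenitors, and endothelial markers with 0, 2, 4 and 7 of 10 up and 1, 0, 0 and 1 down, and their part in the result was not tested. The gene down in HE and in myeloid progenitors was Vwf.

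**Figure D5:**
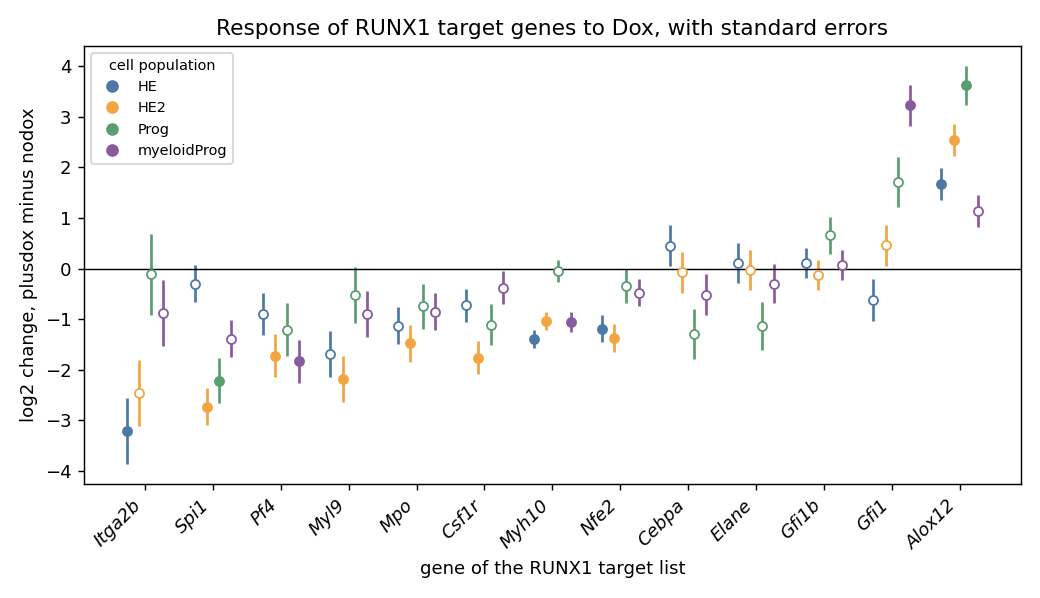
Log2 change with Dox (y axis, plusdox minus nodox, bars are standard errors from the limma fit) of 13 of the 14 expressed genes of the RUNX1 target list (x axis, ordered by their summed change) in 4 cell populations by colour, where filled points passed the threshold of P 0.001 and 2-fold. Alox12 is highest in progenitors at 3.63 and Gfi1 in myeloid progenitors at 3.23, and Spi1 falls by 2.74 in HE2.

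Along the uninduced populations, 6 of the 14 targets rose from HE to HE2, where 5.05% of all genes were called, 0 fell and 8 did not pass, with a median change of 0.93 and a range of -0.69 to 3.55. At this step 5 of 10 haematopoietic markers rose (median 2.01) and 3 of 10 endothelial markers fell, and their part in the result was not tested. Spi1, Gfi1, Gfi1b and Itga2b are both targets and haematopoietic markers here, so that these lists share members. From HE2 to progenitors, 3 targets rose and 2 fell (5.4% of all genes called), and from progenitors to myeloid progenitors, 3 rose and 2 fell (13.9%), with medians of 0.64 and -0.28. With Dox the counts at these steps were 5 up and 0 down (3.1% of all genes called), 5 up and 0 down (7.3%), and 3 up and 2 down (7.37%). Spi1 rose by 3.30 from uninduced HE, where 2 of 3 arrays were well above background, to HE2 and by 2.04 from HE2 to progenitors.

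The regulators known to act upstream of Runx1 were expressed in 9 of 9 cases. With Dox, 1 rose and 1 fell in HE and likewise in HE2, 1 rose among progenitors and 3 rose among myeloid progenitors, with median changes of 0.26, 0.42, 0.18 and 0.13 against -0.01, -0.03, -0.04 and -0.02 for all genes. Of all genes, 7.09, 7.18, 3.75 and 6.31% were called in these comparisons. Lyl1, a bHLH factor, fell by 2.50 in HE (adjusted P = 1.94e-06) and changed by -1.44 in HE2 (adjusted P = 0.000589). Lmo2, a bridging protein of the same complexes, rose by 1.06 in HE (adjusted P = 0.00433). Fli1, an ETS factor, rose by 1.41 in HE2 (adjusted P = 7.23e-05), 1.59 in progenitors (adjusted P = 0.000411) and 1.28 in myeloid progenitors (adjusted P = 0.000153). Erg, its close relative, rose by 2.09 in myeloid progenitors (adjusted P = 0.000154).

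The list of corepressors of ETO and of E proteins that bind it has 13 genes, among them Ncor1, Sin3a, Hdac1, Hdac3 and Tcf12. It also holds Gfi1, the repressor described above. All 13 were expressed. In limma 0 of 13 were called with Dox in HE, HE2 and progenitors, with 3, 2 and 2 at an unadjusted P under 0.05. Of all genes, 7.09, 7.18 and 3.75% were called there, and 6.31% in myeloid progenitors. In myeloid progenitors 2 rose, Gfi1 as above and Tcf4, an E protein, by 1.27 (adjusted P = 0.00248). Of 8 skeletal targets of RUNX2, 4 were expressed. Alpl, a phosphatase of bone cells and several other cell types, rose by 3.33 in HE (adjusted P = 1.29e-07) and 3.67 in HE2 (adjusted P = 5.93e-08, 2 of 3 uninduced arrays well above background). In progenitors it read 3.27-fold higher with Dox (adjusted P = 0.0026), where neither uninduced array was well above background. Col1a1, a collagen of connective tissue, fell by 2.07 in HE (adjusted P = 0.0103) and changed by -3.26 in HE2 (adjusted P = 0.000299), and in myeloid progenitors 0 of 4 were called, with 1 at an unadjusted P under 0.05. Cardiac and smooth muscle markers had 1 of 8 up and 1 down in HE and 4 of 8 down in HE2, and their part in the fall of Col1a1 was not tested.

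The genes most like each member were found by Pearson correlation of log2 intensity over the 22 fitted arrays, which share slides and groups, and they are given as a description. For Runx1t1 these were Clic6 (0.94), St6galnac3 (0.937) and Fli1 (0.925). For Cbfa2t3 they were Arpc1b (0.956), Lman2l (0.954) and Ttc7 (0.925). For Runx1 they included B9d2 (0.913) and Abhd11 (0.904). The leading genes included Sox14 (0.866), Plxna1 (0.858) and Dnajc14 (0.851) for Runx3, Arrdc3 (0.872) and Tnks2 (0.828) for Cbfb, and Aqp11 (0.887), Ift88 (0.846) and Msh5 (0.844) for Cbfa2t2. Among the members themselves, Runx1t1 and Cbfa2t3 had a correlation of -0.579, and Runx1 and Cbfa2t3 one of 0.518.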

How the data were processed

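RNA of 23 samples was measured on 1-colour Agilent SurePrint G3 Mouse arrays. The authors deposited spot intensities from Feature Extraction (10.7.3.1 in the file headers, 10.7.1.1 in the submitters' processing notes), not normalized, and a table of log2 values that they had background corrected and quantile normalized, used here as an alternative. No column of values was left unused. From the median intensity of each spot, background was corrected with normexp (offset 16). Of 62976 spots, 3671 control spots and spots marked as outliers were left out. Arrays were quantile normalized and spots averaged to 55681 probes, of which 26582 matched a symbol through the RefSeq table of GRCm38.p6. That table was also used for the promoters and for the neighbours of Runx1. With limma 3.58.1 in R 4.3.3 (with version 1.17.8 of data.table), group means were estimated from 22 arrays, leaving 14 residual degrees of freedom, and P values were adjusted by the Benjamini-Hochberg method. The fit was tested on simulated data. Replicates are labelled as biological, apart from induced myeloid progenitor array 3, for which a label says technical. Saturated spots were absent, and precision is limited by how many arrays there were. A probe not well above background in a group was set against the higher of its own signal and the lowest signal well above background. Same-numbered uninduced HE and HE2 arrays deviated together, as their deviations from the group means correlated at 0.393, 0.796 and 0.61, which pairs these groups by number. The values printed come from the fit without the pairing, and the replicate block is an alternative.

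Named were all members and their probes, for each expressed member the 3 genes most like it (some of these, and 1 target gene in a plot, are not reported here), and from each list the 2 called genes with the largest rise and the 2 with the largest fall with Dox. Further genes are named as examples of a list or of a step. The members and lists were chosen with earlier results of these data known. Alternatives tried were a normexp offset of 50, uncorrected background, 75th percentile scaling, the deposited values, no filter, the mean of a gene's probes, an adjusted P of 0.05, slide or replicate as a block, the compared groups alone, the additional array included, and leaving out each array.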

Additional observations from a re-analysis of the deposited data

How the results depend on the processing

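The rises of Runx1t1 with Dox in HE2, progenitors and myeloid progenitors and of Runx1 from uninduced HE to HE2 kept their calls under all alternatives run, and so did the fall of Runx1t1 from uninduced HE2 to progenitors. The rise of Runx1t1 from uninduced progenitors to myeloid progenitors was lost when only the compared groups were fitted (2.30, adjusted P = 0.0073). For uninduced HE against HE2, which the numbers pair, Runx1 kept its call under the replicate block and the number of members called stayed at 1. Slides could not be blocked for uninduced progenitors against myeloid progenitors, which share none. Runx1t1 in HE (1.24) passed with an adjusted P of at most 0.05 and a 2-fold change and with the replicate block, also with induced numbers 2 and 3 exchanged as in the deposited table (1.24 in each), a fit chosen after seeing the data. The number of members called with Dox in HE was then 2, 1 and 1, and 0 to 1 when an array was left out. In HE2 it was 1 with the mean of all probes, 1 with only the groups compared, and 1 to 2 when an array was left out. The replicate block also brought the difference of the Runx1t1 response between progenitors and HE2 (1.89) and between myeloid progenitors and progenitors (-1.91) past the threshold and ended the call of the fall of Runx1 to uninduced myeloid progenitors (-1.63). With the mean of all probes Cbfa2t3 fell by 0.93 in HE2 and was not called, nor was the fall of Runx1 to uninduced myeloid progenitors (-0.81). The HE2 call of Cbfa2t3 was also lost with only the groups compared, and its rise from induced HE2 to progenitors with the mean of probes (0.86), with only the groups compared and with 75th percentile scaling (1.27).

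Directions turned for differences that passed no threshold. For Runx1 in progenitors the response was 0.23 with the mean of all probes, 0.20 when slides were blocked and 0.11 with the additional array. That of Runx3 in myeloid progenitors was -0.0046 without background correction, -0.14 with 75th percentile scaling and -0.42 with the mean of all probes. With 75th percentile scaling, Cbfb and Cbfa2t2 in HE2 were at -0.11 and -0.069, and the difference of the Runx1 response of myeloid progenitors against progenitors came to 0.18. Blocked by slide, Cbfa2t2 in progenitors was at -0.093 and the step of Runx1t1 from induced progenitors to myeloid progenitors at -0.24. When arrays were left out, the response ranged for Cbfa2t2 from -0.17 to 0.075 in HE, -0.056 to 0.11 in HE2 and -0.12 to 0.55 in progenitors, for Runx1 from -0.38 to 0.18 in progenitors and -0.36 to 0.031 in myeloid progenitors, and for Runx3 in myeloid progenitors from -0.084 to 0.12. In induced cells Runx1t1 ranged from -0.34 to 0.14 for HE2 against HE, -0.91 to 0.34 for progenitors against HE2 and -0.24 to 1.02 for myeloid progenitors against progenitors. The difference of the Runx1 response ranged from -0.088 to 0.48 for progenitors against HE2 and from -0.38 to 0.19 for myeloid progenitors against progenitors. The cause was not tested. Runx2 and the dim Runx3 probe are limited by signal over background.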

Other observations

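Clic6, a chloride channel gene whose pattern was the most like that of Runx1t1, is the protein-coding neighbour of Runx1 on 1 side in the RefSeq table of GRCm38.p6, with Setd4 on the other. Across the 22 fitted arrays, Clic6 correlated with Runx1t1 at 0.94 and with Runx1 at -0.596, and Setd4 at -0.383 and 0.443. The mean level of Clic6 was 12.49 in uninduced HE, 10.57 in uninduced HE2, 8.26 in uninduced progenitors and 11.01 in uninduced myeloid progenitors, and 13.36, 12.18, 12.13 and 12.94 in the corresponding induced groups. The relation was noticed after the values were seen and is given without a test.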
